A study of Rattus norvegicus with 10 samples.

Results

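The Myc and Mxd network comprises the basic helix-loop-helix leucine zipper transcription factors that compete for the partner Max, and here it was followed in rat lens cells stimulated with fibroblast growth factor 2 (FGF2). Its members were taken by name as Myc, Mycn, Mycl, Max, Mxd1, Mxd3, Mxd4, Mxi1, Mnt, and Mlx, and every probe set to which the array annotation gives 1 of these symbols alone was used. All 10 genes were found, on 13 of the 31042 probe sets tested, which stand for 14217 named genes. Max, Mxi1, and Mlx have 2 probe sets each, and the others have 1.

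The samples were lens explants, sheets of capsule with the attached epithelial cells, from 3-day-old rats. All explants were first kept overnight at 5 ng/mL FGF2, and those collected then form the 0 hr group. The other groups received 100 ng/mL FGF2 for 2, 4, 12, or 24 hr, a dose at which such epithelial cells begin to differentiate into fiber cells. Each time point has 2 arrays from separate biological experiments, and this number limits the precision of every value below. No array held explants that stayed at 5 ng/mL while the others were stimulated, so dose and hours in culture cannot be told apart. In such bulk samples, fewer cells of a type and less RNA per cell cannot be told apart either. The terms early and late response phase are used here for the 2 and 4 hr and for the 12 and 24 hr arrays.

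As background, Myc, N-Myc (Mycn), and L-Myc (Mycl) bind DNA as dimers with Max at the E-box and recruit histone acetyltransferase complexes to genes of growth and cell division. The Mxd proteins, Mxi1, and Mnt take up the same partner and the same sites, but they bring in the Sin3 corepressor with its histone deacetylases, and several of them are known to rise as cells leave the cell cycle. Mlx is the Max-like partner of some Mxd proteins, of Mnt, and of the glucose-sensing factors MondoA (Mlxip) and ChREBP (Mlxipl). In the lens, N-Myc is known from mouse genetics to be needed for normal growth and fiber cell differentiation.

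The site on which these factors compete also stands in some of their own promoters, and these stretches are shown because they tie the members to each other by sequence. RefSeq promoters on the GRCr8 build were matched for 8 of the 10 members, all but Myc and Mycn. Each runs from 250 bases before to 50 bases after the start that defines the promoter, which need not be the outer 5′ end of the gene. The palindrome CACGTG, which reads alike on both strands, was in 4 of these 8, against 6.42% of the 33469 promoters in the table. Each window below has 30 bases of the gene's own strand, 5′ to 3′, with the E-box in capitals.
Max, chr6:101395306-101395335, minus strand: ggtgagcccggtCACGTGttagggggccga
Mxd4, chr14:80786572-80786601, plus strand: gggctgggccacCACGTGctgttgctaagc
Mnt, chr10:60197824-60197853, plus strand: ccccacccaagcCACGTGtgcgcgcgcgat
Mlx, chr10:86519804-86519833, plus strand: ggtggcttggatCACGTGactgagcctcgc
The first base of the motif lay 33 bases before the promoter's start for Max, 197 for Mxd4, 123 for Mnt, and 70 for Mlx. The annotated genes of Mnt and Mlx begin at 60197654 and 86519517, and that of Max, on the minus strand, at 101395333. The motifs of Max, Mnt, and Mlx thus lie within the annotated genes, while Mxd4 begins at 80786768, after its motif. No such match was in the windows of Mycl, Mxd1, Mxd3, and Mxi1, which says only that these letters are not there. The window of Mxi1 starts at 262348392, inside a gene that begins at 262329274. That of Mxd1 reaches to 120675379, inside a gene of the minus strand that begins at 120678972. The window of Mycl, on the plus strand, starts at 140559903, inside a gene that begins at 140559843. The outer 5′ ends of Mxi1, Mxd1, and Mycl were thus not searched. A match is a description of the sequence, and binding was not measured.

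The deposited values are intensities that the authors normalized by the robust multichip average (RMA), with medians of 98.0 to 100.3 per array. They were taken to log2, and limma fitted 1 mean per time point over all 10 arrays. A call required an adjusted p under 0.05 (Benjamini-Hochberg) among all 31042 probe sets. The 19 lens markers measured summed to intensities of 101000 to 121000 in all groups, a sum led by the crystallin genes Cryaa (22500 to 25100) and Cryab (17700 to 21100), while others were dim, such as Mip (52.8 to 400) and Six3 (73.7 to 160). Of these 19, the number called down was 1, 5, 6, and 3 in order of time, and 1 was called up at 12 and at 24 hr. Of all probe sets, 8.88%, 11.9%, 10%, and 10.9% were called down in that order, and 8.94% and 9.29% were up at 12 and 24 hr. The summed markers of pigment cells (6 genes, 187 to 205) and of retina (5 genes, 139 to 151) stayed low in all groups. The 5 endothelial markers summed to 1480 to 1890 at 0 hr, 1640 to 1740 at 2 hr, 1200 to 1400 at 4 hr, 1040 to 1130 at 12 hr, and 847 to 956 at 24 hr, and most of that signal was Tek and Kdr, while Pecam1 read 17.2 to 29.9. The 7 markers of blood and macrophages summed to 2330 to 2400 at 0 hr, 2200 to 3970 at 2 hr, 2510 to 2720 at 4 hr, 1770 to 1790 at 12 hr, and 1580 to 1770 at 24 hr, nearly all of it hemoglobin (Hbb), while Ptprc read 12.9 to 19.3. The 6 fibroblast markers summed to 8120 to 9500 at 24 hr and to 10200 to 11300 in the other groups. Nearly all of that signal was Pdgfra (7790 to 10900), while Col1a1 read 58.6 to 101 and Lum 11.8 to 33.9. The GAPDH control, whose 5′ to 3′ log2 ratio reflects RNA integrity, stood at −0.30 to −0.17 on the 2 and 4 hr arrays, against −0.14 to 0.00 on the others. Array names place the 2 and 4 hr arrays, the 0 hr arrays, and the 12 and 24 hr arrays in 3 separate number blocks, so phase and block cannot be told apart, and only 4 against 2 hr and 24 against 12 hr lie within a block. The part of these markers and of RNA integrity in the results below was not tested.

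Against 0 hr, Myc was up at 2, 4, and 12 hr, Mycn was down at 2 hr and up at 12 and 24 hr, and Mycl was down from 4 hr on. Of the 5 antagonist genes, Mxi1 was down at 2 and 4 hr (at 2 hr on 1 of its 2 probe sets), Mnt was down at 12 hr, Mxd3 was up at 4 hr, and Mxd1 and Mxd4 were not called. At 2 hr, 5 of the 13 probe sets were called against 0 hr, with Myc up and Mycn, both Mlx probe sets, and 1 Mxi1 probe set down, where 17.5% of all probe sets were called (8.61% up and 8.88% down). At 4 hr the count was again 5 (Myc and Mxd3 up, Mycl and both Mxi1 probe sets down), against a background of 23.8% (11.9% in each direction). At 12 hr it was 5 once more (Myc, Mycn, and 1 Max probe set up, Mycl and Mnt down), against 19% overall (8.94% up and 10% down). At 24 hr only Mycn (up) and Mycl (down) remained called, 2 of 13 where 20.2% were called overall (9.29% up and 10.9% down). In order of time, the median log2 difference over the 13 probe sets was −0.14, −0.04, −0.01, and 0.08, beside medians of 0.00, −0.02, 0.02, and 0.03 over all probe sets. Leaving out either 0 hr array took the 2 hr count to 2, and leaving out 0 hr replicate 2 or 12 hr replicate 1 took the 12 hr count to 3. Mxd1, Mxd4, and the other Max probe set were called at none of the 4 times.

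**Figure D1:**
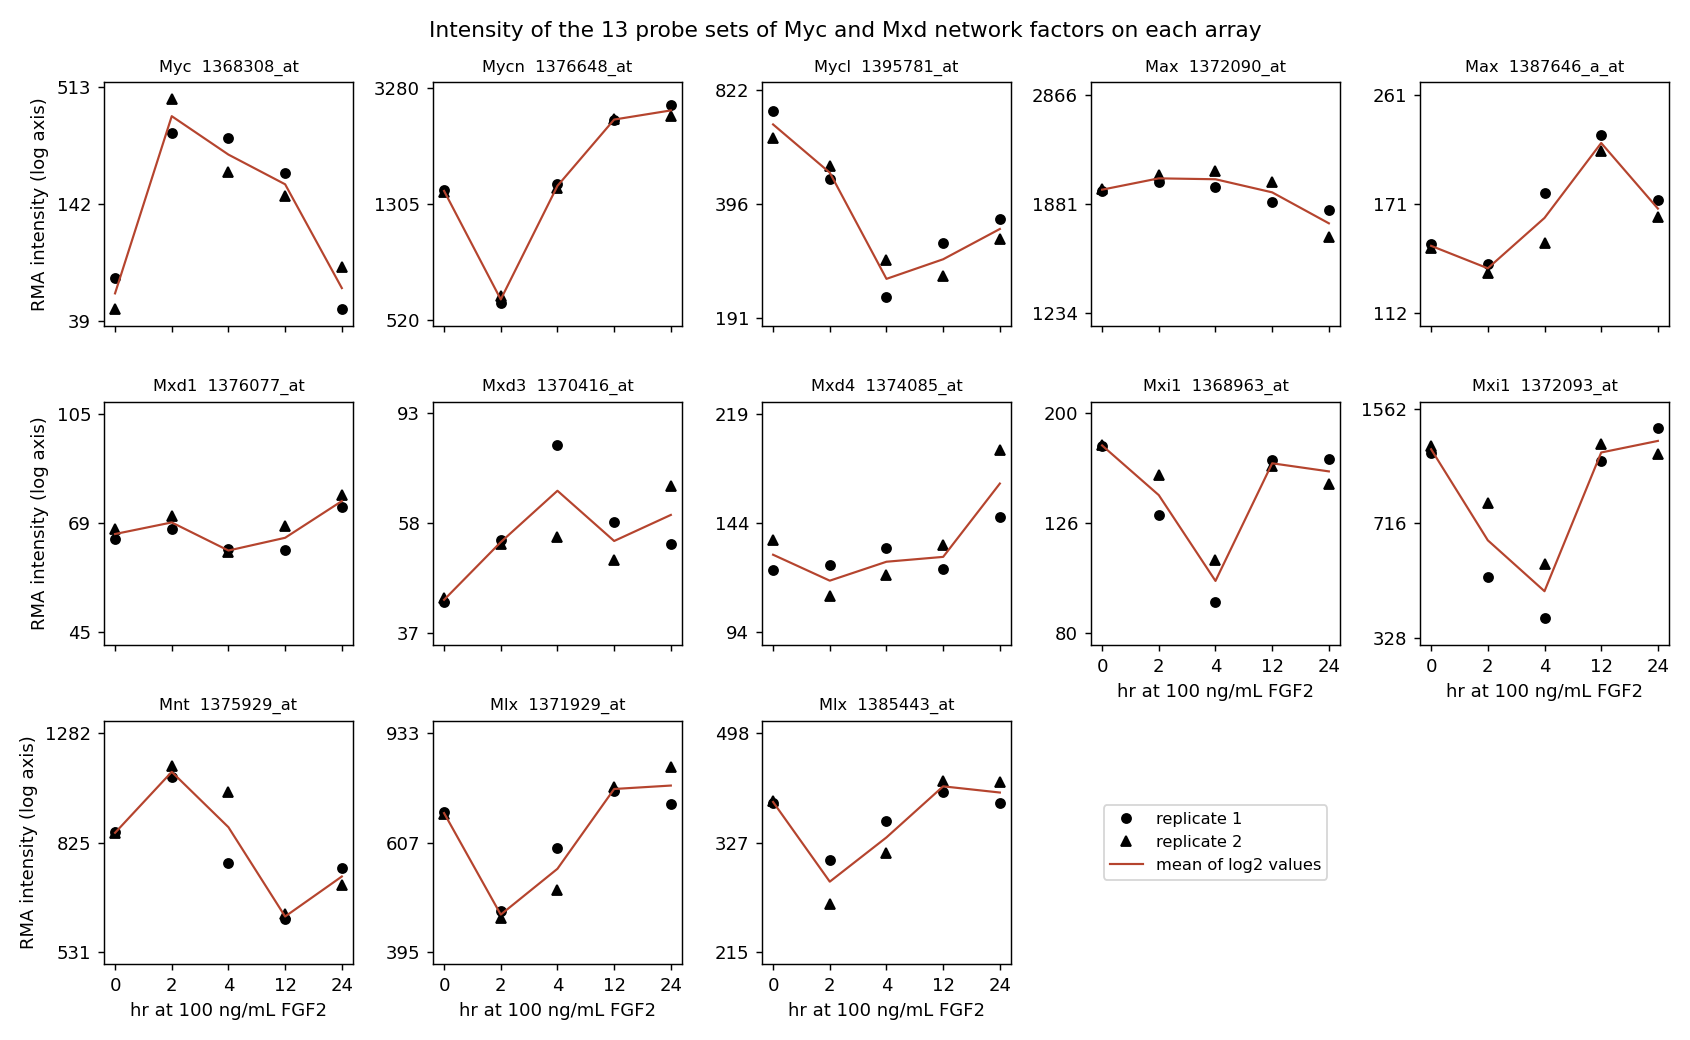
Intensity on a log axis of each of the 13 probe sets against hours at 100 ng/mL FGF2 (0 hr is the overnight culture at 5 ng/mL), with the time points evenly spaced. Points are the 2 arrays of a time point and lines join the means: Myc peaks at 2 hr and is back near its starting level at 24 hr, Mycn dips at 2 hr and ends above it, and Mycl stays below it from 4 hr on.

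Myc, the founding member and a classical immediate early growth factor target, had a transient rise. Its probe set (1368308_at) read 63.2 and 44.9 at 0 hr, 308 and 449 at 2 hr, 294 and 202 at 4 hr, 200 and 155 at 12 hr, and 44.8 and 71.2 at 24 hr. Every 2, 4, and 12 hr array lay above every 0 and 24 hr array, and those 2 groups overlapped. Against 0 hr, Myc was 6.98-fold higher at 2 hr (log2 difference 2.80, standard error 0.29, limma adjusted p = 0.00062), 4.58-fold higher at 4 hr (2.19, adjusted p = 0.001), and 3.31-fold higher at 12 hr (1.73, adjusted p = 0.0041). At 24 hr the difference was 0.08 with a 95% interval from −0.59 to 0.75 (adjusted p = 0.89). In order of level, 2 hr came first, then 4, 12, 24, and 0 hr, and the only neighbours called in this order were 12 and 24 hr. The fall at 24 hr against 12 hr was −1.64 (adjusted p = 0.019), and Myc was the only member called in that comparison, 1 of 13 where 4.34% of all probe sets were called. This call rested on each of 3 arrays: without 12 hr replicate 1 the difference was −1.46 (adjusted p = 0.14), without 12 hr replicate 2 it was −1.82 (0.097), and without 24 hr replicate 1 it was −1.31 (0.097).

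Mycn, which encodes the family member known for its role in embryonic and lens epithelium, was down at 2 hr and up at 12 and 24 hr. Probe set 1376648_at read 1460 and 1439 at 0 hr, 593.8 and 627.8 at 2 hr, 1536 and 1483 at 4 hr, 2544 and 2576 at 12 hr, and 2870 and 2642 at 24 hr. The arrays of no 2 time points overlapped, and the replicates lay closer together than for any other Myc gene. Mycn was 2.37-fold lower at 2 hr (log2 difference −1.25, standard error 0.084, adjusted p = 9.2e-05), near its starting level at 4 hr (0.06, 95% interval −0.13 to 0.25, adjusted p = 0.68), and then 1.77-fold higher at 12 hr (0.82, adjusted p = 0.00037) and 1.90-fold higher at 24 hr (0.93, adjusted p = 2e-04). Its levels ordered as 24, 12, 4, 0, and 2 hr, and of these neighbours 12 and 4 hr differed, by 0.76 (adjusted p = 0.00059, where 22.9% of all probe sets were called), as did 2 and 0 hr. Between 24 and 12 hr and between 4 and 0 hr there was no call. The recovery at 4 hr against 2 hr, both within 1 array block, was 1.31 (adjusted p = 0.00033). In a fit of those 4 arrays alone its adjusted p was 0.059.

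Mycl, which encodes the least studied of the Myc proteins, was down-regulated from 4 hr on. Probe set 1395781_at read 719.1 and 604.1 at 0 hr, 464.7 and 504.5 at 2 hr, 218.1 and 276.2 at 4 hr, 309.0 and 250.5 at 12 hr, and 360.1 and 316.8 at 24 hr. The 0 hr arrays were the highest and the 2 hr arrays came next, with no overlap between those 2 groups or with later times. Mycl was 2.69-fold lower at 4 hr (log2 difference −1.43, standard error 0.16, adjusted p = 0.00038), 2.37-fold lower at 12 hr (−1.24, adjusted p = 0.00091), and 1.95-fold lower at 24 hr (−0.96, adjusted p = 0.003). At 2 hr the difference was −0.44 and missed the threshold (adjusted p = 0.085). In order of level, 0 hr was followed by 2, 24, 12, and 4 hr, and the only neighbours called were 24 and 2 hr, at −0.52 (adjusted p = 0.035). With Mycn, Mycl was 1 of the 2 probe sets called at 4 hr against 2 hr, a comparison in which 3.73% of all were called. That difference of −0.98 (adjusted p = 0.012) fell short of the threshold without 2 hr replicate 2 (−0.92, adjusted p = 0.062) or without 4 hr replicate 1 (−0.81, adjusted p = 0.052), while without 4 hr replicate 2 the count in this comparison was 4.

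Max, the shared partner without which Myc does not bind the E-box, was called against 0 hr at 12 hr on 1 of its 2 probe sets. Probe set 1372090_at read 1980 and 1997 at 0 hr, 2051 and 2105 at 2 hr, 2009 and 2134 at 4 hr, 1894 and 2046 at 12 hr, and 1839 and 1658 at 24 hr. Its differences from 0 hr ran from −0.19 to 0.06 on the log2 scale, none was called, and the 95% intervals reached no farther than −0.39 and 0.27. The other probe set, 1387646_a_at, read 147.1 and 144.5 at 0 hr, 136.2 and 131.3 at 2 hr, 178.7 and 147.6 at 4 hr, 223.6 and 210.4 at 12 hr, and 174.1 and 162.8 at 24 hr. It was highest on the 12 hr arrays, which overlapped no other group, by 0.57 against 0 hr (standard error 0.11, adjusted p = 0.0061). The 2 probe sets of Max thus disagreed at 12 hr, where the first stood at −0.01. Without 0 hr replicate 2 the adjusted p of this rise was 0.05, and without 12 hr replicate 1 it was 0.055.

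**Figure D2:**
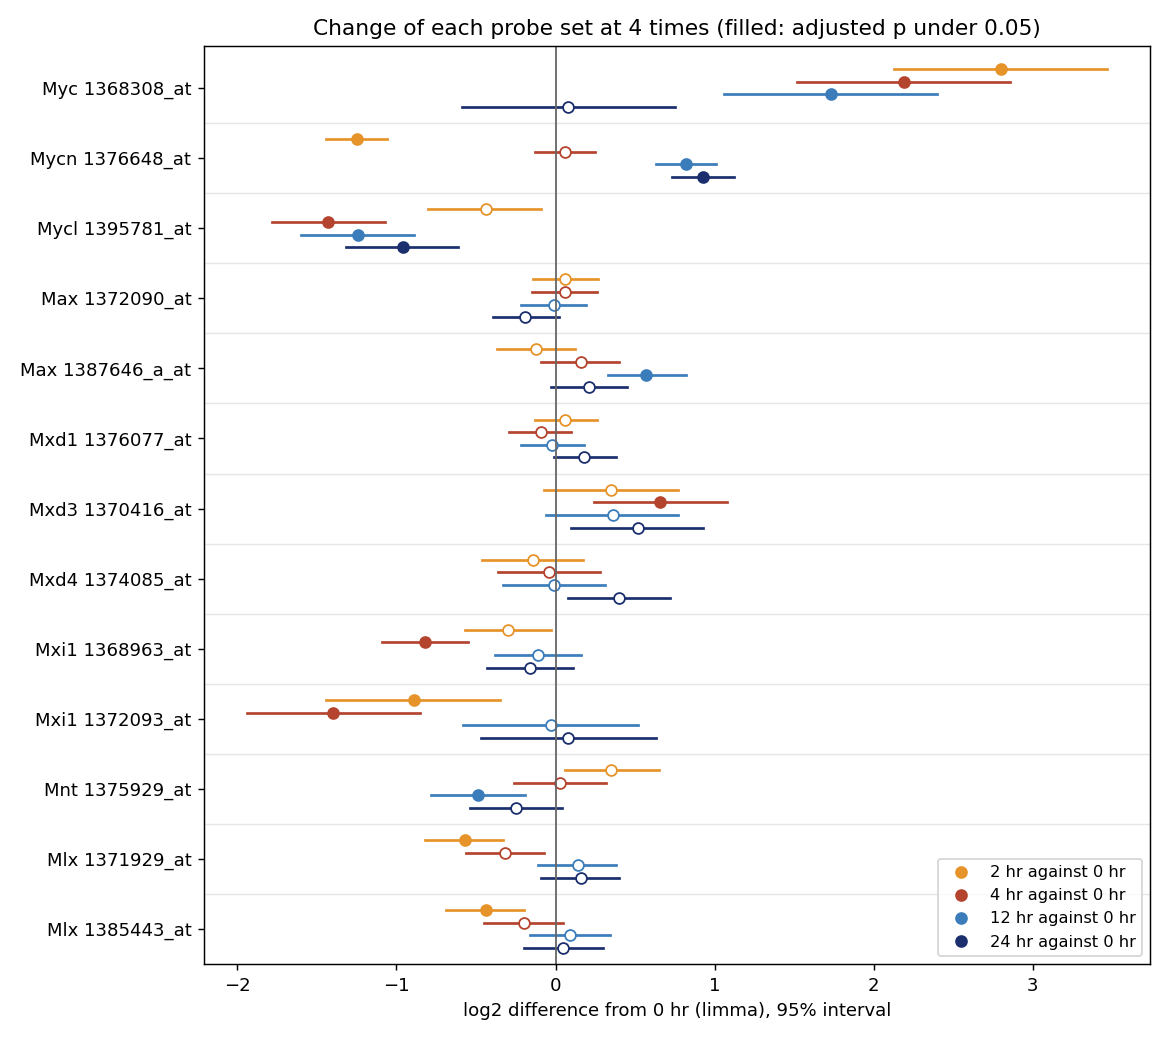
The log2 difference from 0 hr of each probe set at 2, 4, 12, and 24 hr, as points with 95% intervals from limma. Filled points passed an adjusted p of 0.05: the widest range is that of Myc, from 0.08 to 2.80, and the points of Mxd1 and of Max 1372090_at are all open.

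Among the antagonists, Mxi1 fell in the early phase and was not called at 12 or 24 hr. Mxi1 encodes a Max partner that recruits Sin3, and both of its probe sets were lowest at 4 hr. Probe set 1372093_at read 1158 and 1213 at 0 hr, 495.2 and 820.3 at 2 hr, 374.7 and 541.5 at 4 hr, 1092 and 1231 at 12 hr, and 1367 and 1151 at 24 hr. The 4 early arrays were all below the 6 others, although the replicates at 2 and 4 hr were far apart. It was 2.63-fold lower at 4 hr (log2 difference −1.40, standard error 0.24, adjusted p = 0.0036), while the 12 and 24 hr differences were −0.03 and 0.08. At 2 hr it stood at −0.89 (adjusted p = 0.035), a call that was lost without either 0 hr array, without 2 hr replicate 1, or without either 12 hr array (adjusted p of 0.14, 0.16, 0.15, 0.058, and 0.058), and without 2 hr replicate 1 the difference was −0.53. In order of level, 24, 0, and 12 hr preceded 2 and 4 hr, and the only neighbours called were 12 and 2 hr, at 0.86 (adjusted p = 0.028).

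Probe set 1368963_at of Mxi1 was likewise lowest at 4 hr. It read 174.6 and 175.2 at 0 hr, 130.4 and 154.7 at 2 hr, 90.9 and 108.0 at 4 hr, 164.3 and 160.4 at 12 hr, and 165.5 and 148.6 at 24 hr. The 4 hr arrays were the lowest and overlapped no other group. It was 1.76-fold lower at 4 hr (log2 difference −0.82, standard error 0.12, adjusted p = 0.0016), whereas at 2 hr it stood at −0.30 (adjusted p = 0.13).

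Mnt, a widely expressed Max partner regarded as a general antagonist of Myc, was lowest at 12 hr. Probe set 1375929_at read 859.6 and 856.1 at 0 hr, 1072 and 1122 at 2 hr, 760.8 and 1013 at 4 hr, 607.0 and 618.6 at 12 hr, and 744.2 and 696.0 at 24 hr. The 2 hr arrays were the highest of all 10 and the 12 hr arrays the lowest. Mnt was down at 12 hr (log2 difference −0.49, standard error 0.13, adjusted p = 0.029), and at 2 hr it stood at 0.35 (adjusted p = 0.095). The 12 hr call was lost without either 0 hr array or either 12 hr array, with an adjusted p of 0.12 to 0.14 and a difference of −0.50 to −0.47. Against 2 hr, Mnt was lower both at 12 hr (−0.84, adjusted p = 0.0017) and at 24 hr (−0.61, adjusted p = 0.0074), in comparisons that called 26.7% and 29.2% of all probe sets.

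Of the 3 Mxd genes, whose products are best known as repressors in differentiating cells, Mxd3 alone passed the test against 0 hr, at 4 hr. Mxd1 (1376077_at) read 65.0 and 67.4 at 0 hr, 67.6 and 70.8 at 2 hr, 62.4 and 61.8 at 4 hr, 62.3 and 68.3 at 12 hr, and 73.3 and 77.0 at 24 hr. The 24 hr arrays were the highest, yet no difference from 0 hr was called, and that at 24 hr was 0.18 (95% interval −0.01 to 0.38, adjusted p = 0.19). Against 4 hr, Mxd1 was higher at 24 hr by 0.28 (adjusted p = 0.043), where 28.5% of all probe sets were called.

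Mxd4 (1374085_at) read 120.0 and 134.9 at 0 hr, 122.4 and 108.3 at 2 hr, 130.6 and 117.5 at 4 hr, 120.3 and 132.3 at 12 hr, and 147.3 and 190.6 at 24 hr. Here too the 24 hr arrays were the highest, and they overlapped no other group. The difference at 24 hr was 0.40 against 0 hr (standard error 0.14, adjusted p = 0.081) and 0.54 against 2 hr (adjusted p = 0.019).

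Mxd3, unlike the other Mxd genes known from dividing cells, read 41.9 and 42.6 at 0 hr, 54.3 and 53.3 at 2 hr, 81.0 and 55.1 at 4 hr, 58.7 and 49.9 at 12 hr, and 53.5 and 68.1 at 24 hr (1370416_at). Every array at the higher FGF2 dose lay above both 0 hr arrays. Only the 4 hr difference passed, at 0.66 (standard error 0.18, adjusted p = 0.031), and it was lost without 0 hr replicate 1 (adjusted p = 0.13), without 0 hr replicate 2 (0.12), or without the high array, 4 hr replicate 1 (0.38, adjusted p = 0.14). The 2, 12, and 24 hr differences were 0.35, 0.36, and 0.52 (adjusted p = 0.24, 0.24, and 0.085).

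Mlx, the partner shared between Mxd proteins and the Mondo factors, dipped at 2 hr on both of its probe sets. Probe set 1371929_at read 683.1 and 679.6 at 0 hr, 463.3 and 451.7 at 2 hr, 595.3 and 503.8 at 4 hr, 743.1 and 755.5 at 12 hr, and 706.8 and 816.0 at 24 hr. Probe set 1385443_at read 380.8 and 384.3 at 0 hr, 306.1 and 258.2 at 2 hr, 354.8 and 313.6 at 4 hr, 398.3 and 414.4 at 12 hr, and 381.2 and 412.9 at 24 hr. On both, the 2 hr arrays were the lowest and those at 4 hr were intermediate. The log2 difference at 2 hr was −0.57 (standard error 0.11, adjusted p = 0.0082) and −0.44 (standard error 0.11, adjusted p = 0.025). Without 0 hr replicate 1 these had adjusted p of 0.062 and 0.12, without 0 hr replicate 2 of 0.057 and 0.12, and the second probe set was also lost without 2 hr replicate 2 (−0.32, adjusted p = 0.11).

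For Mxd1, Mxd3, Mxd4, Mnt, and Mlx, for both Max probe sets, and for Mxi1 1368963_at, no neighbours in the order of the 5 levels were called, although some of their 95% intervals excluded 0. For Mxi1 1368963_at the 4 hr level stood at −0.52 against 2 hr (interval −0.79 to −0.25, adjusted p = 0.052). Max 1387646_a_at stood at −0.37 at 24 hr against 12 hr (−0.61 to −0.12, adjusted p = 0.1), and Mxd4 at 0.40 at 24 hr against 0 hr (0.08 to 0.72, adjusted p = 0.081). The 4 hr level of Mlx 1371929_at lay between its neighbours, at −0.32 against 0 hr (−0.56 to −0.07, adjusted p = 0.067) and 0.26 against 2 hr (0.01 to 0.50, adjusted p = 0.26). Mnt stood at −0.32 at 4 hr against 2 hr (−0.61 to −0.03, adjusted p = 0.24).

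The late phase was then set against the early phase, a comparison of 4 arrays with 4 that does not use the 0 hr arrays in the difference. Here 9 of the 13 probe sets were called, 7 higher and 2 lower in the late phase, where 39.2% of all probe sets were called (19.9% higher and 19.3% lower). The median over the members was 0.28, beside 0.03 over all probe sets. Mycn was 2.77-fold higher (log2 difference 1.47, standard error 0.06, adjusted p = 3e-06) and Mxi1 (1372093_at) 2.25-fold higher (1.17, standard error 0.17, adjusted p = 0.00075). The 2 members that were lower were Myc, at −1.59 (standard error 0.21, adjusted p = 0.00042), and Mnt, at −0.56 (standard error 0.09, adjusted p = 0.0013). For Myc, Mycn, Mxi1 (1372093_at), Mnt, and both Mlx probe sets the 4 late and the 4 early arrays did not overlap. The share of all probe sets without such overlap is not given here. The remaining calls were smaller, from 0.28 for Mxd4 to 0.59 for Mlx (1371929_at). That of Mxd4 (adjusted p = 0.049) was lost when 8 of the 10 arrays were left out in turn, with differences of 0.19 to 0.32, and those 8 were all but 2 hr replicate 1 and 24 hr replicate 1. The GAPDH 5′ to 3′ ratio and the array block differ between the same phases, while the Actb ratio overlaps, as given above. The part of these was not tested.

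**Figure D3:**
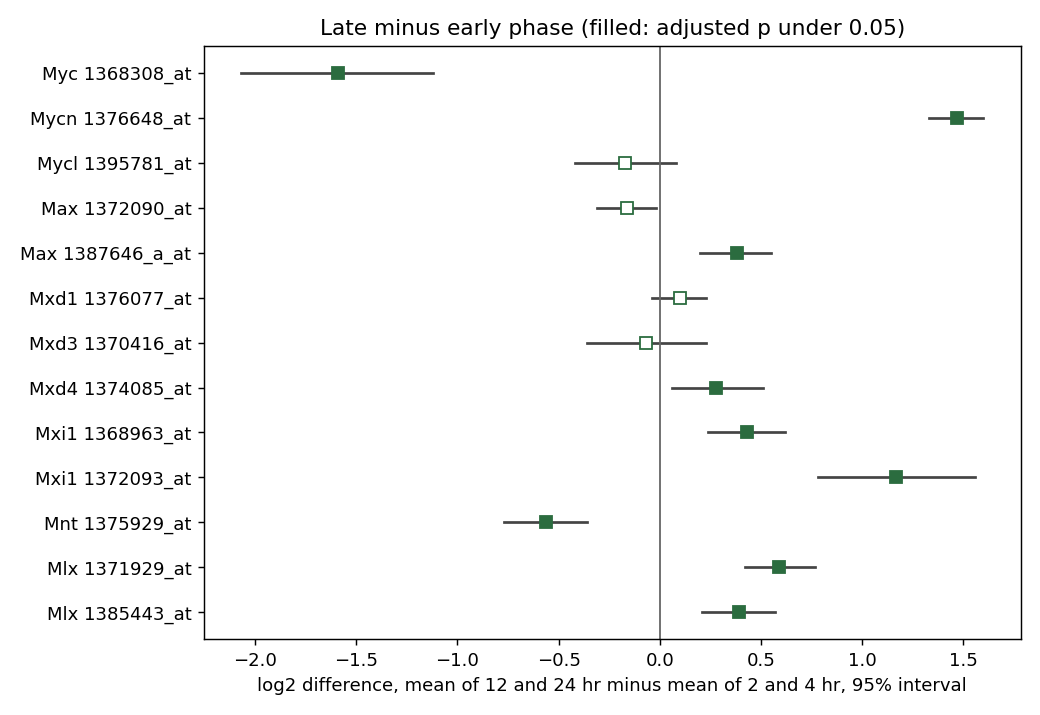
The log2 difference of the late phase (12 and 24 hr) from the early phase (2 and 4 hr) for each of the 13 probe sets, with 95% intervals from limma. Filled points passed an adjusted p of 0.05: Mycn at 1.47 and Mxi1 1372093_at at 1.17 lie farthest to the right, Myc at −1.59 farthest to the left.

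The genes around the network were counted with 1 probe set per gene, the brightest. Leaving out a single array, most often a 0 hr array or one of the time concerned, moved many of the counts by over 1.5 times, as given for each list. Of 36 measured genes known as Myc-activated, which serve ribosome assembly, nucleotide synthesis, and growth, 21 were higher late than early and 1, the polyamine enzyme Odc1, was lower (−0.37). These counts compare with 19.9% and 19.3% of all probe sets, and the first ranged from 18 to 22 with any 1 array left out. Against 0 hr, 3 genes (8.33%) were called up and 1 (2.78%) down at both 2 and 4 hr, where the shares of all probe sets were 8.61% up and 8.88% down at 2 hr and 11.9% each way at 4 hr. At 12 and 24 hr, 12 (33.3%) and 14 (38.9%) were called up, where 8.94% and 9.29% of all probe sets were. None was called down at 12 or 24 hr (10% and 10.9% of all probe sets), although 2 and 1 were lower at an unadjusted p under 0.05 in limma. The share of all probe sets at that unadjusted threshold is not given here, for this list or for those below. The median over the list was −0.01, 0.10, 0.28, and 0.28 in order of time, beside 0.00, −0.02, 0.02, and 0.03 over all probe sets. Without 0 hr replicate 2 the 12 hr count was 8, and without either 0 hr array the 24 hr count was 9. No gene of the list was called up at 2 hr when a 0 hr array or 2 hr replicate 1 was left out, and the 4 hr rises numbered 1 without 0 hr replicate 2 and 10 without 4 hr replicate 2.

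The transferrin receptor gene Tfrc, for iron uptake, was up by 1.16 at 12 hr and 1.69 at 24 hr (standard error 0.23, adjusted p = 0.0079 and 0.0013). The serine hydroxymethyltransferase genes Shmt1 and Shmt2, of one-carbon metabolism, were up by 0.95 and 1.10 at 12 hr and by 1.15 and 0.54 at 24 hr (adjusted p of 0.00097 to 0.0059 at 24 hr). Id2, which encodes an inhibitor of helix-loop-helix factors, was down at 2 hr at −1.27 (adjusted p = 0.011) and up at 24 hr at 1.56 (adjusted p = 0.0033). Promoters were matched for 35 of the 40 genes listed, measured or not. Of these, 13 (37.1%) held CACGTG, against 7.08% of all genes with a promoter in the table. In the lists that follow, it was 2 of 4 for MondoA and Mlx targets, 2 of 10 for Myc-repressed genes, and 2 of 14 for coactivators. It was 1 of 13 for regulators of Myc protein stability, 0 of 8 for other E-box binding factors, and 0 of 11 for corepressors. The Myc-activated list was drawn up from general knowledge of Myc targets, with earlier results of these data known. No test was made of these shares.

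Genes known as Myc-repressed went both ways. Of 14 measured, 2 were called up and 3 down at 2 hr, 3 up and 5 down at both 4 and 12 hr, and 2 up and 5 down at 24 hr. Among all probe sets, 8.61% were up and 8.88% down at 2 hr, 11.9% each way at 4 hr, 8.94% and 10% at 12 hr, and 9.29% and 10.9% at 24 hr, beside which 2 of 14 is 14.3%, 3 of 14 is 21.4%, and 5 of 14 is 35.7%. Without either 0 hr array, 3 fell at 4 hr and 3 at 24 hr, and 3 fell at 24 hr also without 24 hr replicate 2. Rises numbered 1 at 12 hr without 0 hr replicate 1 or either 12 hr array, and 1 at 2 and 24 hr without either 0 hr array. The rises were led by Cdkn2b, which encodes the cyclin-dependent kinase inhibitor p15 and stood at 1.78, 2.88, 3.59, and 2.08 at 2, 4, 12, and 24 hr (standard error 0.45, adjusted p of 0.027, 0.0021, 0.00089, and 0.012). The other genes that rose at any time, named after their values were seen, were the kinase inhibitor gene Cdkn1a, the phosphatase gene Dusp2, and the receptor gene Pdgfrb. The stress-response gene Gadd45g fell at all 4 times, to −2.30, −2.17, −1.97, and −1.49 (standard error 0.19). Gadd45a was down at 4, 12, and 24 hr at −1.35, −1.87, and −1.55, and Ndrg2 at all 4 times, at −0.73, −0.98, −1.42, and −0.99.

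The MondoA and Mlx targets are glucose-responsive genes. Of 6 measured, those called up numbered 2, 1, 2, and 0 in order of time and those called down 2, 3, 4, and 2, and at 24 hr 1 was higher at an unadjusted p under 0.05 in limma. In so short a list 1 gene is 16.7% and 2 are 33.3%, where the shares of all probe sets lay between 8.61% and 11.9% in either direction at the 4 times. Txnip, which encodes a brake on glucose uptake and is the classical target, was down at all 4 times, at −0.86, −1.21, −1.21, and −0.57 (standard error 0.15, adjusted p of 0.0069, 0.00081, 0.001, and 0.031). Klf10 was up at 2, 4, and 12 hr at 1.18, 0.84, and 0.40. The glycolytic regulator Pfkfb3 was up at 2 hr (1.07) and down at 4 and 12 hr (−0.75 and −0.92), and the arrestin-like Arrdc3 was down at 12 hr at −0.92 (adjusted p = 0.0096). Leaving out 1 array moved most of these counts: 1 gene fell at 4 hr without either 0 hr array, 1 fell at 12 hr without 0 hr replicate 2 or 12 hr replicate 2, and none fell at 24 hr without either 0 hr array or 24 hr replicate 1. None rose at 12 hr without a 0 hr or a 12 hr array, and none fell at 2 hr without 0 hr replicate 1.

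**Figure D4:**
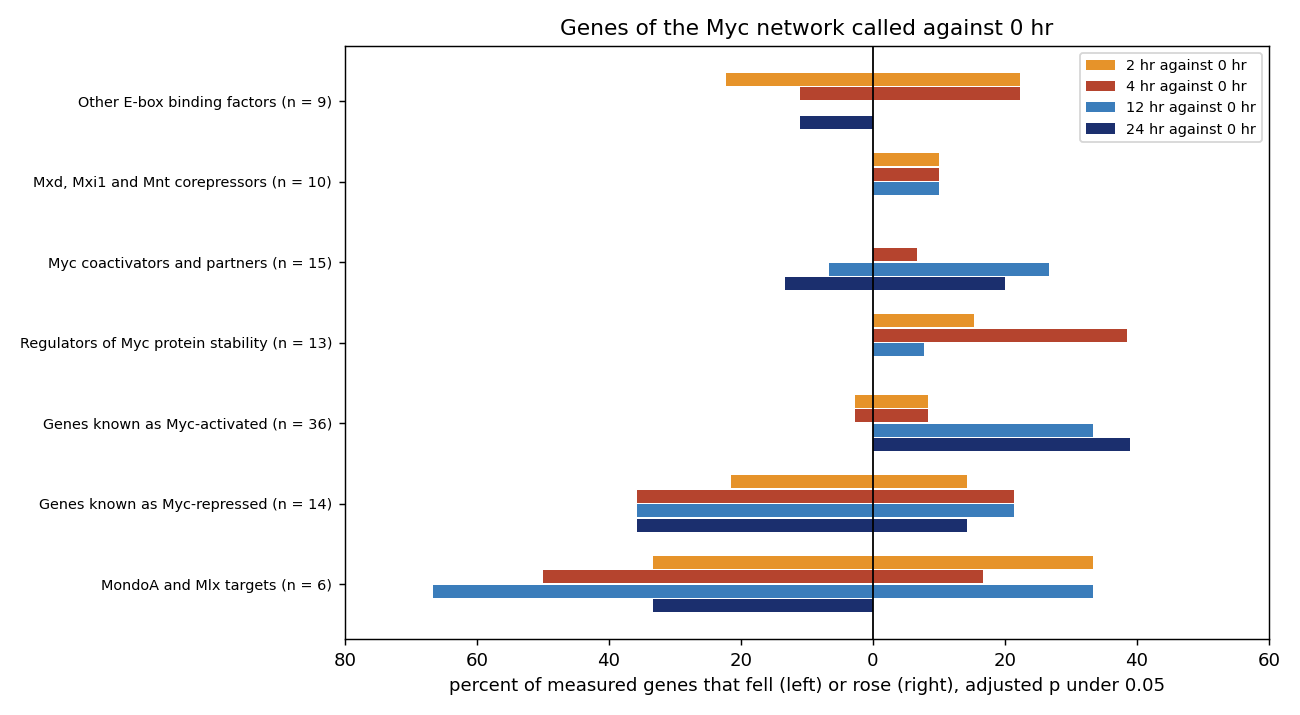
Share of the measured genes of 7 lists around the network that rose (right of 0) or fell (left of 0) against 0 hr at 2, 4, 12, and 24 hr, at an adjusted p under 0.05 from limma. The bar of Myc-activated genes reaches 38.9% up at 24 hr, and that of Mondo and Mlx targets reaches 66.7% down at 12 hr, which is 4 of 6 genes.

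The remaining lists hold the cofactors. Of 9 other E-box binding factors, Tfe3 and Tfeb, which drive lysosomal genes, were up at 2 hr (0.67 and 0.66) and at 4 hr (0.75 and 1.02), while Tfap4, itself known as a Myc target, was down at both (−1.05 and −0.74, adjusted p = 0.00084 and 0.0024). Mitf, of the same family as Tfe3, was down at 2 hr at −0.51, and Tfe3 at 24 hr at −0.40. Without 0 hr replicate 2, 1 gene of this list rose and 1 fell at 2 hr, and the 24 hr call of Tfe3 was lost without any 1 of the 0 or 24 hr arrays. The 2 genes up at 2 and at 4 hr are 22.2% of the list, where 8.61% and 11.9% of all probe sets were up, and the 2 down at 2 hr compare with 8.88%, while the single genes down at 4 and 24 hr (11.1% of the list) are near the shares of 11.9% and 10.9%. No gene of this list was called at 12 hr, also not at an unadjusted p under 0.05. Of 10 corepressor genes 1 rose at 2, 4, and 12 hr each, namely Arid4b (0.41), Hdac1 (0.35), and the Sin3 scaffold gene Sin3a (0.44), and 1 of 10 is near the share of all probe sets that rose (8.61%, 11.9%, and 8.94%). Each of these 3 calls was lost without either 0 hr array, and that of Hdac1 without any 1 array other than those at 2 hr. At 24 hr none was called, while 2 were higher and 1 lower at an unadjusted p under 0.05, with no background share given.

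Of 15 coactivator genes, 4 were called up and 1 down at 12 hr, with 3 up and 2 down at 24 hr. These are 26.7% and 6.67% of the list at 12 hr, where 8.94% of all probe sets were up and 10% down, and 20% and 13.3% at 24 hr, where 9.29% were up and 10.9% down. Ruvbl1, an ATPase of Myc-bound chromatin complexes, was up by 0.71 and 0.85 at these times (adjusted p = 0.0016 and 0.00071), and its partner Ruvbl2 by 0.58 and 0.41. The acetyltransferase gene Kat2a was up by 0.55 and 0.52, and the acetyltransferase gene Crebbp was down at −0.53 and −0.59. Without 0 hr replicate 2 or 12 hr replicate 1 the 12 hr rises numbered 2. The fall of Crebbp at 12 hr was lost without 0 hr replicate 1 or 12 hr replicate 1, and falls at 24 hr numbered 1 without a 0 or 24 hr array. Of 13 regulators of Myc protein stability, 2 (15.4%) rose at 2 hr and 5 (38.5%) at 4 hr, where 8.61% and 11.9% of all probe sets rose, and without either 0 hr array 2 rose at 4 hr and 0 at 2 hr. The 2 hr count was also 0 without 2 hr replicate 2. The pseudokinase gene Trib3 was up by 1.54 and 2.43 (standard error 0.37, adjusted p = 0.024 and 0.0021), the deubiquitinase gene Usp28 by 0.51 and 0.85, and at 4 hr the kinase gene Aurka by 0.69 and the deubiquitinase gene Usp36 by 0.41. At 12 hr the only call was Usp28 (0.48), 7.69% of the list beside 8.94% of all probe sets, which was lost without a 0 or 12 hr array, and at 24 hr there was none, with 1 gene higher at an unadjusted p under 0.05.

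Across the 10 arrays, the probe sets closest in pattern were sought among 15172 that carry 1 symbol and are not among the dimmest probe sets. These correlations are descriptions over 10 arrays that share 5 time points, and they carry no test. For Myc the closest were Pvr (Pearson r = 0.969), Rassf9 (0.953), Dusp5 (0.947), Ppp1r13b (0.947), and Zdhhc5 (0.943). For Mycn they were Prr12 (0.989), Fbxl4 (0.982), Tmc6 (0.978), Tmem192 (0.976), and Gcg (0.971). Kat6b (0.985), Btbd2 (0.977), Ccdc77 (0.964), Slx1b (0.963), and Fam234a (0.962) were closest to Mxi1 1372093_at. Mxd1, with its narrow range, was most like Calr (0.928), Hspa12b (0.92), Unc80 (0.913), Mzf1 (0.912), and Crem (0.909).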

How the data were processed

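The 10 arrays hold 2 biological replicates of each of 5 time points. The deposited intensity values were made by the authors with RMA, on a linear scale; its version is not given in the sources used here. They were taken to log2 without further normalization, and 57 array controls were left out. Of the 31042 probe sets, 20826 carry 1 symbol, 436 several, and 9780 none. The probe identifiers belong to another rat array than the one the methods name.

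In R 4.3.3 with limma 3.58.1, lmFit and eBayes used 1 mean per time point (5 residual degrees of freedom, prior 3.69). The script was tested on simulated data of the same design. Named genes were all member probe sets, up to 4 called genes per list with the largest change, and the 5 nearest in pattern. Members and lists were chosen with earlier results of these data known. Replicate numbers were checked for pairing by the correlation of replicate deviations between times. It passed 0.1 only for 4 and 2 hr (r = 0.33, with the others at −0.15 to 0.00), so the numbers were not taken as pairs. The main fit thus treats the 2 and 4 hr arrays as independent, also in late against early, although these deviations correlate. A time point left with 1 array was assumed to vary like the others. Promoters came from RefSeq (GRCr8). Figures used Python 3.11.15 with matplotlib 3.10.9. The miRNA measurements were not analysed here.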

Additional observations from a re-analysis of the deposited data

Results flagged for a closer look

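For 9 of the 13 probe sets the change against 0 hr differed between the late and the early response phase by a test of the difference itself (limma, adjusted p under 0.05), where 39.2% of all probe sets did so. The late minus early log2 difference was −1.59 for Myc, 1.47 for Mycn, 0.38 for Max (1387646_a_at), 0.28 for Mxd4, 0.43 for Mxi1 (1368963_at), 1.17 for Mxi1 (1372093_at), −0.56 for Mnt, 0.59 for Mlx (1371929_at), and 0.39 for Mlx (1385443_at). Only Mycn had a called change in both directions, down at 2 hr and up at 12 and 24 hr.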

How the results depend on the processing

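The 29 called member differences against 0 hr, at 4 against 2 hr, at 24 against 12 hr, and for late against early were recomputed. This was done under 19 alternatives each, which gave 551 values. Calls of 12 or 24 hr against 2 or 4 hr were not recomputed. Of these, 505 kept the direction and the call, 46 lost the call, and none reversed. Part of this outcome was fixed in advance. An unadjusted p keeps every call, and a fold change minimum or leaving out an array outside the comparison does not change the difference. With any 1 array left out, the members called ranged from 2 to 6 at 2 hr, 4 to 5 at 4 hr, 3 to 5 at 12 hr, 2 to 3 at 24 hr, 1 to 4 at 4 against 2 hr, 0 to 2 at 24 against 12 hr, and 8 to 9 for late against early. The genes called over the 7 lists, of 103, ranged from 7 to 25 at 2 hr, 13 to 30 at 4 hr, 19 to 35 at 12 hr, 16 to 33 at 24 hr, and, in late against early, 43 to 57. Fits of only the groups compared called 3 members at 2 hr and 0 at 4 against 2 hr. At an unadjusted p under 0.05 in limma, members called were 8 at 2 hr, 4 at 24 hr, 6 at 4 against 2 hr, and 4 at 24 against 12 hr, and list genes 34, 42, and 45 in the 2, 4, and 24 hr groups. The methods' analysis of variance, unadjusted, called 3 members at 24 against 12 hr, and 52 and 46 list genes at 12 and 24 hr. Shares of all probe sets at these unadjusted thresholds are not given here, so these counts have no background beside them. The causes were not tested. With a replicate block the members called numbered 5, 5, 5, and 2 against 0 hr in order of time and 8 for late against early, where Mxd4 was lost (adjusted p = 0.059), and over all probe sets the 2 hr count was 5008, against 5427 without it.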
